A study of Mus musculus with 6 samples.

Results

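The 10 genes described here encode chaperones, disulfide isomerases and signalling proteins of the endoplasmic reticulum (ER): Hspa5, Hsp90b1, Dnajb9, Sdf2l1, Pdia4, Pdia6, Creld2, Xbp1, Herpud1 and Ern2. They were chosen by name as genes of the unfolded protein response, with earlier results of these data known. The other gene lists were also chosen with such results known, so shares set against all genes tested are descriptive. The group makes up 10 of the 23725 genes in the deposited table. All 10 passed the filter on low values and were among the 12837 genes tested. The RNA was that of the colonic epithelium of C57BL/6J mice, whose cells had been enriched by Percoll gradient without culture. In 3 libraries the genotype was wild type, and in 3 it was B6-Cg-Nr3c1-Vil-Cre/ERT2 (Nr3c1IEC-/-), a knockout of the glucocorticoid receptor gene Nr3c1. The Cre recombinase is driven by the villin promoter, which is active in intestinal epithelium, and is switched on by tamoxifen. Both groups received intraperitoneal tamoxifen on 5 days in a row and were sampled on day 7 counted from the first dose. Whether wild-type mice carried Cre, which exon was removed, the age of the mice and whether each library was a separate mouse are not given in the labels. The p-values therefore measure the spread between these libraries, which may be technical.

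Proteins that enter the secretory pathway fold in the ER, helped by luminal chaperones and by enzymes that form disulfide bonds. When unfolded protein builds up, the sensors Ire1, Perk and Atf6 start the unfolded protein response. Ire1 splices the messenger RNA of Xbp1, and spliced Xbp1 and cleaved Atf6 switch on chaperone, folding and degradation genes. Goblet cells of the colon make large amounts of mucin and depend on this machinery, and they express a second Ire1, encoded by Ern2. Gene-level reads do not separate spliced from unspliced Xbp1 and do not measure protein.

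The ER stress response element (ERSE) was searched as CCAAT, any 9 bases, then CCACG, and its relative ERSE-II as ATTGG, any 1 base, then CCACG. Both were searched on both strands of RefSeq promoter windows of GRCm38.p6, which run from 250 bases before to 50 bases after a gene's start. A promoter was found for 9 of the 10 genes. The 5 windows with a match are shown because they carry the element through which the response is known to act on chaperone genes. They are Hspa5 (chr2:34771840-34772139, plus strand), Hsp90b1 (chr10:86705395-86705694, minus strand), Pdia6 (chr12:17266339-17266638, plus strand), Creld2 (chr15:88819396-88819695, plus strand) and Herpud1 (chr8:94386179-94386478, plus strand). Capitals mark the 2 fixed ends of each match, and every window reads 5′ to 3′ along the gene.
Hspa5: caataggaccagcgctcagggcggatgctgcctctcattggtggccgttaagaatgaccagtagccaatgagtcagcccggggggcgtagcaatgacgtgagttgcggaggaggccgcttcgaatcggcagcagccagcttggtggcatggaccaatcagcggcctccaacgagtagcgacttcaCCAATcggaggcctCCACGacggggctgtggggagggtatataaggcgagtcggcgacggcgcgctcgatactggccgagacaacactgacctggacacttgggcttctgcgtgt
Hsp90b1: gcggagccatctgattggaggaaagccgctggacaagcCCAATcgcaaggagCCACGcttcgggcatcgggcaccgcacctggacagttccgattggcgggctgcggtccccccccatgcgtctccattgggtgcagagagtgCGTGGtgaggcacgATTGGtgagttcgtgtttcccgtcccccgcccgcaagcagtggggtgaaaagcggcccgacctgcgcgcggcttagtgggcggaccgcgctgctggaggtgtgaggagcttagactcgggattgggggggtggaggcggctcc
Pdia6: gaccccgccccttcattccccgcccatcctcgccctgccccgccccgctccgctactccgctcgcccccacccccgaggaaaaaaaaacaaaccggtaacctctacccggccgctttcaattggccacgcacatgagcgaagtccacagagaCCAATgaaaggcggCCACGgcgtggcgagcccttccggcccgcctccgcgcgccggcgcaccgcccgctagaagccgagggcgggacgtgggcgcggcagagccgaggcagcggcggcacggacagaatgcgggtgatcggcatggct
Creld2: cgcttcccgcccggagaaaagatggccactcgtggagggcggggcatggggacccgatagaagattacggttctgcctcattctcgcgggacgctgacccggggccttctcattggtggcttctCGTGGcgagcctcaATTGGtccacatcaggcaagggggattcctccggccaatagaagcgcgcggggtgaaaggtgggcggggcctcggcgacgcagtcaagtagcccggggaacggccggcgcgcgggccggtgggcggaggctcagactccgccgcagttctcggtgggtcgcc
Herpud1: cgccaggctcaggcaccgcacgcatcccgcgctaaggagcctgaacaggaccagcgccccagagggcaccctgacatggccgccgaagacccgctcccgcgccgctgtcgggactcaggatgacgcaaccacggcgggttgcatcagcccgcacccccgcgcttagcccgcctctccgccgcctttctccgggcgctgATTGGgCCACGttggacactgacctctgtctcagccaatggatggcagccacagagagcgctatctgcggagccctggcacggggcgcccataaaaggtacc

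The ERSE lay 65 bases before the start of Hspa5 and 98 bases before that of Pdia6. Hsp90b1 had 2 matches, at 212 bases on the gene's strand and at 107 bases on the opposite strand. Creld2 had 1 match at 126 bases, on the opposite strand. Herpud1 had an ERSE-II at 52 bases and, on the opposite strand at 112 bases, the core of a CEBP-ATF site (TGATGCAA). No window of Dnajb9, Sdf2l1, Pdia4 or Xbp1 held these letters, and none of the 9 held the core of the unfolded protein response element (TGACGTGG) or a glucocorticoid response element (AGAACA, any 3 bases, then TGTTCT). Over the 27025 genes with a promoter in the table, 37 genes (0.137%) held an ERSE and 12 (0.044%) an ERSE-II. The shares were 0.714% for the unfolded protein response element core, 0.011% for the glucocorticoid response element and 1.03% for the CEBP-ATF core. A match describes letters and does not show binding. Only exact matches in these windows were searched, so a missing match does not show that an element is absent.

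Libraries held 10089313 to 12030844 reads, recovered as whole reads from the normalized values. Nr3c1 (Entrez 14815) had 1119.8, 967.1 and 196.7 normalized reads in wild type replicates 1, 2 and 3, and 144.7, 123.1 and 174.7 in the knockout libraries. At the targeted gene, the library labelled wild type replicate 3 was thus at the knockout level, against its label, and results are also given without it. The log2 change of Nr3c1 was -2.03 ± 0.60 (SE, n = 3 libraries per group; limma adjusted p = 0.0372). A two-sided exact permutation test gave p = 0.1, the smallest that 3 against 3 libraries allow. The 5 other libraries, without wild type replicate 3, gave -2.83 (limma adjusted p = 0.000731), and leaving out any other library ended the call (limma adjusted p = 0.0631 to 0.125).

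Epithelial markers (12 genes, led by Krt8, Car1 and Krt19) were abundant in every library. They summed to 418567.7 to 430610.3 normalized reads in wild type and to 309094.3 to 386944.0 in knockout libraries, without overlap. Their median log2 change was 0.02 (2 rose and 3 fell). Myeloid markers summed to 1005.1 to 2376.1 in wild type and to 4192.6 to 10179.9 in knockout libraries, and 11 of 15 rose. T cell markers summed to 87.0 to 159.4 and to 200.7 to 484.3 (2 of 5 tested rose). Stromal markers summed to 615.6 to 1209.4 and to 951.9 to 2918.4 (2 of 8 tested rose). Plasma and B cell markers, whose cells have a large ER, summed to 12.7 to 82.0 and to 56.9 to 196.7. Only Jchain of these 10 markers was tested (limma adjusted p = 0.132), and the others had at most 7.64 normalized reads in any library. Enteroendocrine markers (3 of 7 tested raised) and tuft cell markers (2 raised and 1 lowered of 3 tested) differed in single genes. Of the deep secretory and stem cell markers, 2 of 5 tested fell, and of the immediate early genes that mark tissue dissociation 6 of 8 fell and 1 rose. These counts are to be read against 15.0% raised and 15.4% lowered over all genes tested (limma, adjusted p under 0.05). The share raised was 16.7% for epithelial, 73.3% for myeloid, 40% for T cell, 25% for stromal and 42.9% for enteroendocrine markers. The share lowered was 25% for epithelial markers, 40% for deep secretory and stem cell markers and 75% for immediate early genes. Several of these counts moved when a library was left out. The deep secretory and stem cell genes that fell numbered 0 without wild type replicate 1 or 2 or knockout replicate 3 and 1 without knockout replicate 2. Leaving out wild type replicate 3 kept the count at 2. Epithelial genes that fell numbered 1 without wild type replicate 1 or 2, and 2 without knockout replicate 3, and those that rose 1 without wild type replicate 1 or 2. Stromal genes that rose numbered 3 without wild type replicate 3 and 4 with knockout replicate 2 left out, and 1 in the other 4 leave-outs. Of the stromal genes 1 fell without knockout replicate 3. T cell genes that rose numbered 3 without knockout replicate 2. Among the fits with 1 library left out, the lowered tuft cell gene kept its call only without wild type replicate 3 or knockout replicate 1. Enteroendocrine genes that fell numbered 2 without wild type replicate 3 and 0 otherwise. Myeloid genes that rose numbered 9 to 13.

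Of the 10 genes, 3 rose in the knockout libraries (Creld2, Sdf2l1 and Pdia4), Ern2 fell, and 6 did not pass the test (limma, adjusted p under 0.05). Over all genes tested, 15.0% rose and 15.4% fell by the same rule. The median log2 change of the 10 genes was 0.40, against 0.01 over all genes tested. For 5 of the 10 (Hsp90b1, Sdf2l1, Pdia4, Pdia6 and Creld2) every knockout library was above every wild-type library, which held for 25.2% of all genes tested. For Dnajb9 and Ern2 every knockout library was below every wild-type library, as for 25.5% of all genes tested. With wild type replicate 1, 2 or 3 left out the number raised was 2, 0 and 2, and with knockout replicate 1, 2 or 3 left out it was 3, 5 and 3. Without wild type replicate 3, Creld2 and Sdf2l1 rose and Ern2 fell, against 12.6% raised and 12.5% lowered over all genes tested.

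**Figure D1:**
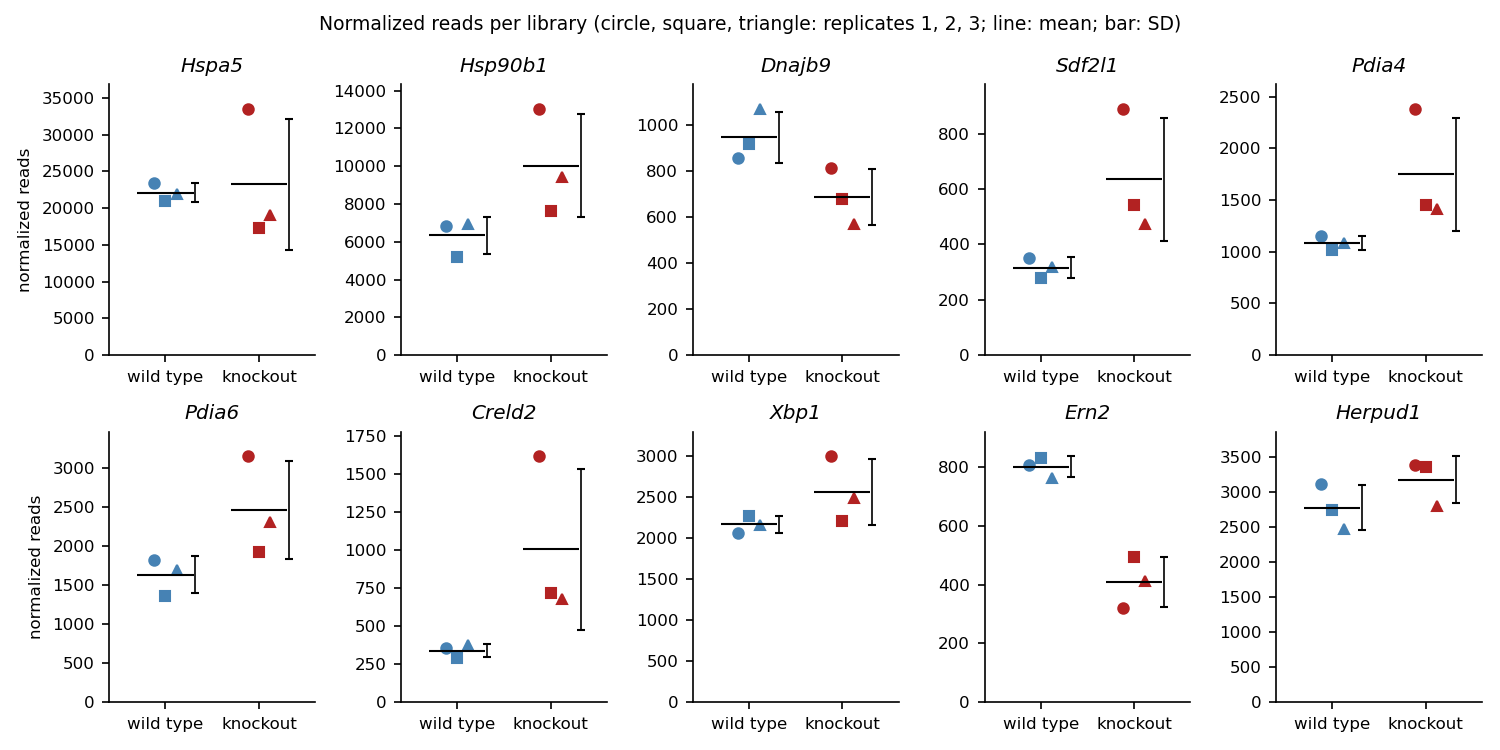
Normalized reads of each of the 10 genes (vertical axes, starting at 0) in the 3 wild-type (blue) and 3 knockout (red) libraries, with circles, squares and triangles for replicates 1, 2 and 3, a line at the group mean and a bar for the SD. Knockout replicate 1 is the highest knockout library in every panel but that of Ern2, where it is the lowest at 321.8 normalized reads.

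Hspa5 (Entrez 14828, chromosome 2, 34772090 to 34776529 in GRCm38) encodes BiP, the ER member of the Hsp70 family, which binds unfolded chains and holds the 3 stress sensors inactive. It had 23480.9, 20951.3 and 21862.6 normalized reads in wild type replicates 1, 2 and 3, and 33474.0, 17237.2 and 19042.9 in knockout replicates 1, 2 and 3. Knockout replicate 1 was above all other libraries and the other 2 knockout libraries were below all wild-type ones, so the groups overlapped. The means were 22098 ± 1281 and 23251 ± 8899 (SD, n = 3 each). The fitted fold change was 1.01, with a 95% interval of 0.664 to 1.53 (adjusted p = 0.979 in limma, and 0.994 without wild type replicate 3). The sign of this difference turned with the scaling and with the library left out, so no direction is given for Hspa5.

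Hsp90b1 (Entrez 22027, chromosome 10, 86690841 to 86705444) encodes Grp94, the Hsp90 of the ER, which folds integrins and Toll-like receptors. Its values were 6860.8, 5194.3 and 6963.3 in wild type and 13020.8, 7644.4 and 9428.4 in knockout libraries. All knockout libraries were above all wild-type libraries, and knockout replicate 1 was the highest. The log2 change of 0.64 ± 0.22 (SE; 95% interval 0.14 to 1.14, not adjusted for the number of genes) did not pass the test (limma adjusted p = 0.0585; 0.0802 without wild type replicate 3). It passed with DESeq2 (adjusted p = 0.0152) and in limma without knockout replicate 2 (adjusted p = 0.0259).

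Sdf2l1 (Entrez 64136, chromosome 16, 17130138 to 17132383) encodes a small luminal protein that works in complexes with BiP and its J-domain partners. It had 352.4, 279.7 and 317.8 normalized reads in wild type and 888.9, 543.2 and 474.5 in knockout libraries. Every knockout library was higher than every wild-type one. Sdf2l1 rose from 316.6 ± 36.4 to 635.5 ± 222.1 (SD), a fold change of 1.94 with a 95% interval of 1.34 to 2.81 (adjusted p = 0.0191 in limma, and 0.047 without wild type replicate 3). The call was lost without wild type replicate 2 (limma adjusted p = 0.073).

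Dnajb9 (Entrez 27362, chromosome 12, 44205897 to 44210068) encodes ERdj4, a J-domain partner of BiP and a well known target of spliced Xbp1. It had 856.5, 916.2 and 1070.1 normalized reads in wild type and 812.4, 680.8 and 571.9 in knockout libraries. Here the knockout libraries were the lower ones and the groups did not overlap, but wild type replicate 1 and knockout replicate 1 were close. The log2 change was -0.47 ± 0.15 (SE; limma adjusted p = 0.0534; 0.143 without wild type replicate 3) and did not pass the test. It passed with TMM scaling (adjusted p = 0.0494), upper-quartile scaling (0.041), quantile normalization (0.0354), library weights (0.0262) and DESeq2 (0.0452), and in limma without knockout replicate 1 (adjusted p = 0.0188).

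Among the enzymes of disulfide exchange, Pdia4 (Entrez 12304, chromosome 6, 47796141 to 47813512) encodes ERp72. Its values were 1149.5, 1015.0 and 1086.5 in wild type and 2380.7, 1452.7 and 1418.6 in knockout libraries. The wild-type libraries lay close together, while knockout replicate 1 was far above the other knockout libraries. Pdia4 rose 1.57-fold (95% interval 1.14 to 2.16; limma adjusted p = 0.0427). The call was lost without wild type replicate 1, 2 or 3 (limma adjusted p = 0.0974, 0.131 and 0.0887) and with quantile normalization (0.0577).

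Pdia6 (Entrez 71853, chromosome 12, 17266589 to 17284785) encodes the disulfide isomerase P5, which also binds the luminal side of Ire1. It had 1824.5, 1365.1 and 1696.7 normalized reads in wild type and 3142.8, 1921.4 and 2301.7 in knockout libraries. The groups did not overlap, with knockout replicate 2 only just above wild type replicate 1. The log2 change of 0.57 ± 0.20 (SE) missed the threshold (limma adjusted p = 0.0597; 0.0995 without wild type replicate 3). It passed with DESeq2 (adjusted p = 0.026) and in limma without knockout replicate 2 (adjusted p = 0.0269).

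Creld2 (Entrez 76737, chromosome 15, 88819646 to 88826681) encodes an ER protein with EGF-like domains that is known for its strong induction by ER stress. Its values were 354.5, 292.4 and 374.3 in wild type and 1615.4, 719.1 and 680.7 in knockout libraries. All 3 knockout libraries were far above the wild-type range, and replicate 1 was again the highest. Creld2 rose from 340.4 ± 42.8 to 1005 ± 528.9 (SD), 2.73-fold with a 95% interval of 1.65 to 4.52 (adjusted p = 0.0131 in limma, and 0.029 without wild type replicate 3). This was the largest fold change of the 10 genes, and its call was lost without wild type replicate 2 (limma adjusted p = 0.0537).

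Xbp1 (Entrez 22433, chromosome 11, 5520641 to 5525993) encodes the transcription factor activated by Ire1 splicing. It had 2064.4, 2268.6 and 2157.5 normalized reads in wild type and 2990.8, 2202.9 and 2489.8 in knockout libraries, and the groups overlapped at knockout replicate 2. The log2 difference was 0.23, with a 95% interval of -0.07 to 0.54 (adjusted p = 0.206 in limma, and 0.315 without wild type replicate 3). Herpud1 (Entrez 64209, chromosome 8, 94386429 to 94395371) encodes an ER membrane protein that organizes the degradation of misfolded proteins. It had 3113.0, 2744.8 and 2470.8 in wild type and 3384.9, 3351.4 and 2797.2 in knockout libraries. Only knockout replicate 3 lay inside the wild-type range, and the log2 difference was 0.20, with a 95% interval of -0.11 to 0.50 (adjusted p = 0.281 in limma, and 0.577 without wild type replicate 3).

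Ern2 (Entrez 26918, chromosome 7, 122169893 to 122186239) encodes Ire1 beta, the Ire1 of mucus-secreting epithelium. It had 806.6, 831.2 and 761.4 normalized reads in wild type and 321.8, 492.5 and 413.4 in knockout libraries. The groups were far apart, and knockout replicate 1, the highest knockout library for the other 9 genes, was the lowest here. Ern2 fell from 799.7 ± 35.4 to 409.2 ± 85.4 (SD), a fold change of 0.505 with a 95% interval of 0.39 to 0.654 (adjusted p = 0.00479 in limma, and 0.0131 without wild type replicate 3). The call held with each of the 6 libraries left out in turn (limma adjusted p = 0.00327 to 0.0262). In bulk RNA, fewer cells of a type and less RNA per cell cannot be told apart.

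Ern1, which encodes the Ire1 present in most cells, had 276.0, 241.5 and 275.0 normalized reads in wild type and 169.8, 220.4 and 225.3 in knockout libraries (log2 change -0.37 ± 0.15, SE; limma adjusted p = 0.1), without overlap but short of the threshold. For every 1000 reads of Ern1 there were 2923.1, 3441.3 and 2768.2 reads of Ern2 in wild type and 1895.1, 2234.7 and 1834.7 in knockout libraries. The ratio was thus lower in every knockout library, also where Ern1 itself was low. Of 11 tested goblet cell markers 2 fell (18.2%), against 15.4% of all genes tested, and their median log2 change was -0.08. Those that fell were Muc2, the main mucin of the colon (log2 change -1.51, limma adjusted p = 0.00616), and the goblet cell factor Atoh1 (-1.42 and 0.0264). With limma or edgeR 0 rose. With DESeq2, and in limma at an unadjusted p under 0.05, 3 fell and 1 rose. The call of Muc2 held in all 6 leave-outs, and that of Atoh1 was lost without wild type replicate 1 or 2 or knockout replicate 3 (adjusted p up to 0.0945). Without wild type replicate 3, 3 goblet cell markers fell, and 1 rose without wild type replicate 2 or knockout replicate 1. Their summed level was 77620.1 to 80734.9 normalized reads in wild type and 47340.7 to 74069.5 in knockout libraries, led by Fcgbp, Muc2 and Zg16. Fcgbp and Zg16 overlapped between the groups. For every 1000 reads of Muc2 there were 24.1, 24.8 and 42.1 reads of Ern2 in wild type and 39.3, 49.6 and 38.0 in knockout libraries. The overlap comes from wild type replicate 3 alone, and without it the ratio was higher in every knockout library than in the 2 remaining wild-type ones. The part of the goblet cell share in the fall of Ern2 was not tested.

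**Figure D2:**
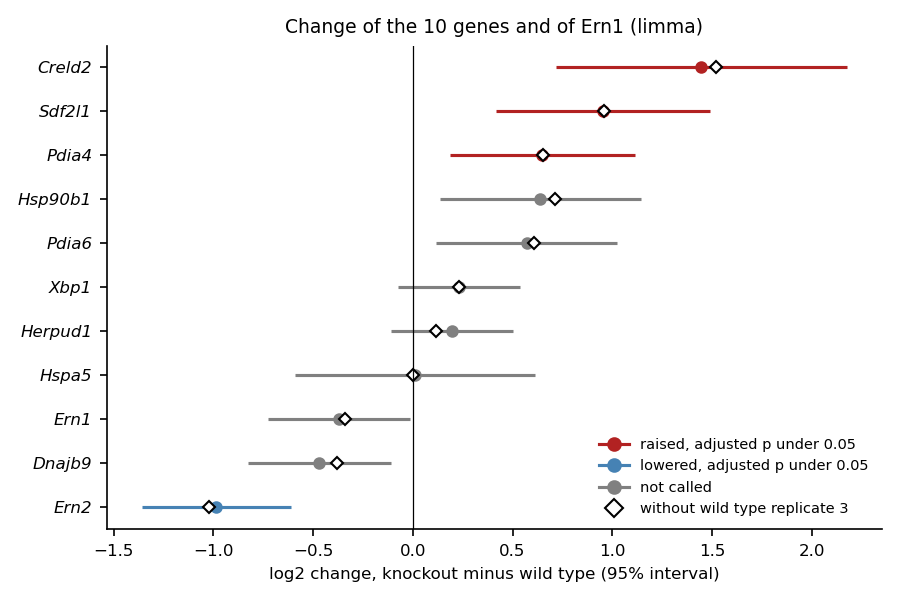
Log2 change (knockout minus wild type, horizontal axis) of the 10 genes and Ern1 from limma with 95% intervals, coloured by call, and the change without wild type replicate 3 as open diamonds. Creld2, Sdf2l1 and Pdia4 are raised and Ern2 is lowered, and Hspa5 sits at 0.01.

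Knockout replicate 1 was the highest of the knockout libraries for 9 of the 10 genes. On the log2 scale its difference from the wild-type mean was 2.25 for Creld2, 1.49 for Sdf2l1, 1.14 for Pdia4, 1.05 for Hsp90b1 and 0.96 for Pdia6. In knockout replicate 2 the same genes differed by 1.09, 0.78, 0.42, 0.28 and 0.25, and in knockout replicate 3 by 1.01, 0.59, 0.39, 0.59 and 0.51. These 5 genes are those with every knockout library above every wild-type library, so their shared direction follows from that choice. The size of the difference was not shared by the 3 knockout libraries. Hspa5 differed by 0.60 in knockout replicate 1 and by -0.36 and -0.21 in replicates 2 and 3. Without knockout replicate 1, Creld2, Sdf2l1 and Pdia4 still rose (log2 change 1.05, 0.69 and 0.41; limma adjusted p = 0.00254, 0.0129 and 0.0277), while the change of Hspa5 was -0.29 (limma adjusted p = 0.252).

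**Figure D3:**
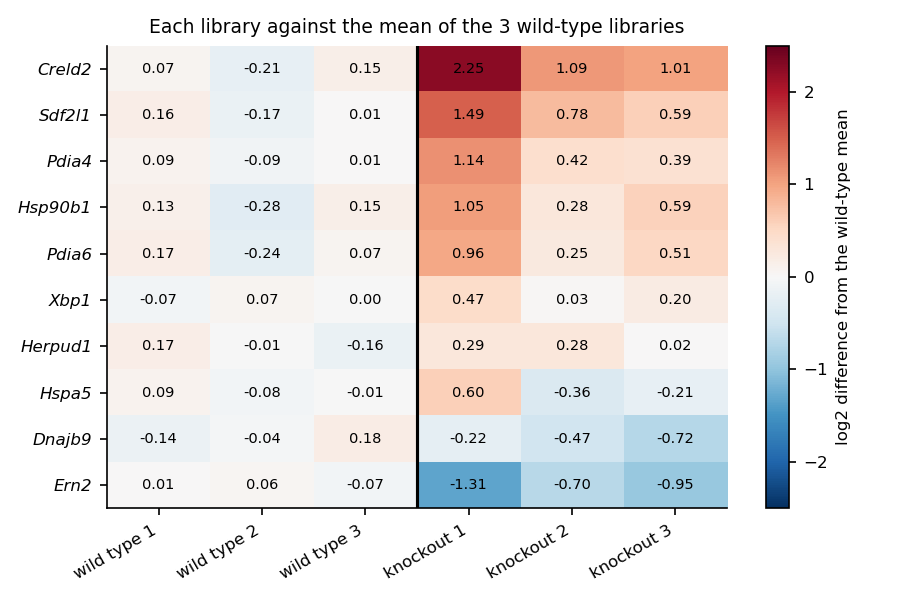
Log2 difference of each library (columns) from the mean of the 3 wild-type libraries for the 10 genes (rows), with red above and blue below. Knockout replicate 1 has the highest knockout value for 9 of the 10 genes, up to 2.25 for Creld2, and Hspa5 is above 0 in that knockout library only.

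The mean level of 29 tested immune and stromal markers, as log2 normalized reads, was 4.83, 5.21 and 5.86 in wild type and 7.75, 6.38 and 7.01 in knockout libraries, also highest in knockout replicate 1. With that level as a covariate none of the 10 genes passed the threshold (limma adjusted p = 0.286 to 0.994), and over all genes tested 17 were raised and 28 lowered. The level does not overlap between the groups, so it and the genotype cannot be told apart by that fit.

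Relative to Hspa5, Creld2, Sdf2l1, Pdia4 and Hsp90b1 were higher in every knockout library. In the 2 knockout libraries where Hspa5 was below all wild-type values this had to follow, because these 4 genes were above theirs. For every 1000 reads of Hspa5 there were 15.1, 14.0 and 17.1 reads of Creld2 in wild type and 48.3, 41.7 and 35.7 in knockout libraries. The values for Sdf2l1 were 15.0, 13.3 and 14.5 against 26.6, 31.5 and 24.9. The values for Pdia4 were 49.0, 48.4 and 49.7 against 71.1, 84.3 and 74.5. The values for Hsp90b1 were 292.2, 247.9 and 318.5 against 389.0, 443.5 and 495.1. Groups did not overlap for any of these 4 ratios, and knockout replicate 1 was the highest only for Creld2. A ratio within a library shows unequal change and not which gene moved.

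Levels of different genes were compared as normalized reads per kb of exon. In wild type Hspa5 was the highest at 5887 ± 341.3 (SD, n = 3), followed by Hsp90b1 (2244), Herpud1 (1422), Xbp1 (905.6), Pdia6 (748.8), Pdia4 (451.7), Dnajb9 (385.1), Sdf2l1 (285.8), Ern2 (274.4) and Creld2 (249.2). The library ranges of neighbours in this order were apart except between Pdia4 and Dnajb9, Sdf2l1 and Ern2, and Ern2 and Creld2. In the knockout the order was Hspa5 (6194 ± 2371), Hsp90b1 (3551), Herpud1 (1628), Pdia6 (1129), Xbp1 (1072), Creld2 (735.8), Pdia4 (729.8), Sdf2l1 (573.6), Dnajb9 (279.7) and Ern2 (140.4). There, neighbours were apart only between Hsp90b1 and Herpud1, Sdf2l1 and Dnajb9, and Dnajb9 and Ern2. Ern1 was lower than Ern2 in both groups, at 32.4 in wild type and 25.2 in knockout libraries per kb.

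Likeness of profiles was measured over the 6 libraries as the root mean square (RMS) difference of log2 values, each centred on its own mean. Among the 10 genes the closest pairs were Hsp90b1 and Pdia6 (0.055), Pdia4 and Pdia6 (0.131) and Hsp90b1 and Pdia4 (0.142), and the farthest pair was Creld2 and Ern2 (1.35). The 5 other genes most like Hspa5 were Ulbp1 (0.086), Il17d (0.092), Ccnj (0.093), Antxr2 (0.104) and Tdp1 (0.113), none of them called. Ulbp1 and Il17d, at 8.28 to 15.7 and 8.28 to 16.8 normalized reads, lay near the filter value of 10. Ccnj was also low, at 17.2 to 33.5. The 5 most like Ern2 were Hoxb9 (0.052), Aph1b (0.055), Epb41l1 (0.061), Il11ra2 (0.063) and Nnt (0.072), with log2 changes of -0.97 to -1.03. Chosen after its values were seen, the list for Pdia4 held the ER chaperone genes Hyou1 (0.05) and Manf (0.061).

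The wider secretory pathway was followed in 115 other genes for folding, degradation, translocation and transport out of the ER. Of 111 tested, 42 rose and 2 fell (Txndc5 and Tmed3), so 37.8% were raised against 15.0% of all genes tested. The call of Tmed3 (limma adjusted p = 0.0396) held with wild type replicate 3 left out and was lost in the other 5 leave-outs. The median log2 change was 0.29 against 0.01 over all genes tested. In 65 of 111 (58.6%) all knockout libraries were above all wild-type ones, and in 6 all were below. Over all genes tested these shares were 25.2% above and 25.5% below. Leaving out wild type replicate 1, 2 or 3 left 16, 13 and 30 raised, and leaving out 1 knockout library left 36 to 41. In knockout replicate 1 the summed level of these genes was also the highest, at 216669.8 normalized reads against 189820.0 and 195166.2 in the other knockout libraries and 155752.3 to 156958 in wild type.

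Of 33 tested genes for folding, oxidation and lectin chaperones, 12 rose (36.4%) and 1 fell (3.03%), with a median log2 change of 0.30. The shares of all genes tested were 15.0% and 15.4%. Ero1a, which reoxidizes disulfide isomerases, rose from 642.4 ± 61.9 to 1794 ± 257.4 (SD, n = 3; limma adjusted p = 0.000707). Dnajc10, a reductase with a J domain, rose from 943.3 ± 20.2 to 1498 ± 50.9 (limma adjusted p = 0.0027). The main disulfide isomerase gene P4hb rose from 8363 ± 380.7 to 15172 ± 1495 (limma adjusted p = 0.00412), and the lectin chaperone gene Calr from 6755 ± 833.3 to 13632 ± 2164 (limma adjusted p = 0.00485). These 4 calls held with each library left out in turn. The thioredoxin-domain gene Txndc5 fell (log2 change -0.49, limma adjusted p = 0.0369), and its call held in only 2 of the 6 fits with a library left out, those without wild type replicate 3 or knockout replicate 2 (adjusted p up to 0.128 in the others). When wild type replicate 1, 2 or 3 was left out, 6, 6 and 8 of the folding genes rose.

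Of 23 tested genes of ER-associated degradation 7 rose (30.4%) and 0 fell, with a median log2 change of 0.19. The shares of all genes tested were 15.0% raised and 15.4% lowered. None fell in limma at an unadjusted p under 0.05, in edgeR or in DESeq2, a count of 0 each. Vcp, the ATPase that pulls substrates out of the membrane, rose from 3541 ± 301.8 to 5824 ± 691.6 (SD; limma adjusted p = 0.00699). Sel1l, the partner of the ubiquitin ligase Hrd1, rose by a log2 change of 0.68, Derl2 by 0.54 and the Vcp cofactor gene Nploc4 by 0.49 (limma adjusted p = 0.0116, 0.0133 and 0.0156). With wild type replicate 1, 2 or 3 left out, 2, 1 and 4 rose.

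Of 28 tested genes of translocation, signal peptide cleavage and N-glycosylation 14 rose (50%) and 0 fell, with a median log2 change of 0.38. The number that fell was also 0 at an unadjusted p under 0.05 in limma, and with edgeR and DESeq2. The shares of all genes tested were 15.0% raised and 15.4% lowered. The translocon subunit genes Sec61b and Sec61g rose by log2 changes of 0.78 and 0.88, and the oligosaccharyltransferase subunit genes Ostc and Ddost by 0.65 and 0.47 (limma adjusted p = 0.00407, 0.00448, 0.00887 and 0.0106). With wild type replicate 1, 2 or 3 left out, 4, 3 and 11 rose. Of 27 tested genes of ER to Golgi transport 9 rose (33.3%) and 1 fell (3.7%), with a median of 0.22. The cargo receptor gene Mcfd2 rose from 843 ± 20.5 to 1817 ± 270.9 (SD; limma adjusted p = 0.00136) and the COPII coat gene Sec23b from 714.8 ± 68.9 to 1343 ± 198.2 (limma adjusted p = 0.00374). Tmed9 (log2 change 0.74) and Uso1 (0.58) rose as well, with limma adjusted p = 0.0049 and 0.011. Of the transport genes 4, 3 and 7 rose when wild type replicate 1, 2 or 3 was left out.

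**Figure D4:**
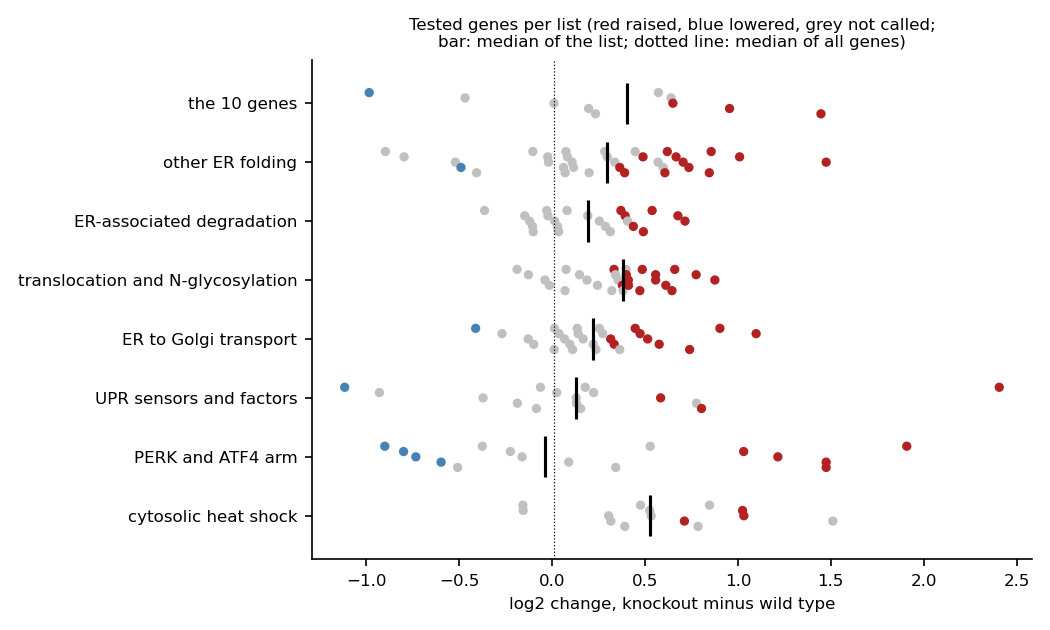
Log2 change (knockout minus wild type, horizontal axis) of every tested gene in the 10-gene group and 7 other lists, coloured by call, with a bar at each median and a dotted line at the median of all genes tested (0.01). The 4 secretory pathway lists have medians of 0.19 to 0.38, and the PERK and ATF4 arm holds both raised and lowered genes.

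Of 16 genes for sensors, activating proteases and transcription factors of the response 3 rose and 1 fell, with a median log2 change of 0.13. The shares, 18.8% raised and 6.25% lowered, are to be read against 15.0% and 15.4% of all genes tested. The 4 called genes encode membrane-bound factors related to Creb3. Creb3l3 rose from 62.9 ± 18.3 to 351.5 ± 149.8 (SD; limma adjusted p = 0.00396), and Creb3 and Creb3l2 rose by log2 changes of 0.58 and 0.80 (limma adjusted p = 0.014 and 0.0385). Creb3l1 fell from 1542 ± 310.1 to 742.4 ± 278.5 (limma adjusted p = 0.0278), a call that was lost without wild type replicate 1 or 2 (adjusted p up to 0.0994). The sensor genes Atf6 (658.3 and 744.7) and Eif2ak3, which encodes Perk (566 and 620), did not pass (limma adjusted p = 0.217 and 0.403). When wild type replicate 1, 2 or 3 was left out, 1, 2 and 2 rose. When knockout replicate 1 or 3 was left out, 2 rose.

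Of 16 genes of the Perk and Atf4 arm 5 rose (31.2%) and 4 fell (25.0%), with a median log2 change of -0.04. The shares of all genes tested were 15.0% and 15.4%. The raised genes were Ero1a, which is also in the folding list, Ddit4, Asns, Trib3 and Chac1. Asns encodes asparagine synthetase, and Trib3 and Chac1 are known targets of Atf4. The factor Atf4 itself fell from 4420 ± 171.9 to 2920 ± 112.4 (SD; limma adjusted p = 0.00513), and Ddit3, which encodes Chop, fell by 0.73 on the log2 scale (limma adjusted p = 0.00563). Atf3 fell by 0.90 and Ppp1r15b, a subunit of the phosphatase that reverses the Perk signal, by 0.80 (limma adjusted p = 0.00689 and 0.00489). Atf3 is also in the immediate early list, whose sum was 103969.8 to 153091 normalized reads in wild type and 57953.6 to 66303.2 in knockout libraries; the part of dissociation in these falls was not tested. Leaving out wild type replicate 1 or 2, or knockout replicate 1 or 3, left 3 raised. Without wild type replicate 3 or knockout replicate 2, 6 rose. The number lowered was 4 in each of these fits.

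Of 14 cytosolic heat shock genes 3 rose (Hspa8, Hsph1 and Dnaja1, with log2 changes of 1.03, 1.03 and 0.71; limma adjusted p = 0.0284, 0.0374 and 0.0448) and 0 fell, also at an unadjusted p under 0.05 and with edgeR and DESeq2. The share raised was 21.4%, against 15.0% of all genes tested, and 15.4% of all genes tested fell. The median log2 change of the heat shock genes was 0.53. Hspa8, the constitutive cytosolic Hsp70, had 17349.3, 16355.5 and 15132.4 normalized reads in wild type and 46951.8, 35524.6 and 21710.3 in knockout libraries. As for the ER chaperones, knockout replicate 1 was the highest. Leaving out wild type replicate 1, 2 or 3 left 0, 2 and 1 raised. With knockout replicate 1, 2 or 3 left out, 2, 1 and 4 rose.

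Across the genome, 18 tested genes held an ERSE in the promoter window, the 4 above among them. Of these 18, 5 rose (Dnajc3, Calr, Alg12, Spats2l and Creld2), Acacb fell and 12 did not pass, with a median log2 change of 0.25 against 0.01 over the 10244 tested genes with a window. These are 27.8% raised and 5.56% lowered, against 14.8% and 15.3% of the genes with a window. The number raised was 3, 2 and 4 with wild type replicate 1, 2 or 3 left out. Of 105 tested genes with the unfolded protein response element core 13 rose and 12 fell (12.4% and 11.4%). Of 8 with an ERSE-II, 1 rose, and of 83 with the CEBP-ATF core 17 rose and 13 fell (20.5% and 15.7%). Of 2 with a glucocorticoid response element 1 fell. Of the 94 other secretory genes with a promoter 6 held an ERSE (Calr, Canx, Derl3, Dnajc3, Ero1b and Syvn1). Canx, Syvn1 and Ero1b, tested like Calr and Dnajc3, did not pass the test (log2 change 0.20, 0.41 and 0.08; limma adjusted p = 0.284, 0.184 and 0.813). Of the 3 genes of the group that rose, Creld2 was the one with an exact ERSE match in its window.

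The ERSE of Creld2 (chr15:88819520-88819538) lies between that gene and Alg12, a mannosyltransferase gene of N-glycosylation that starts 327 bases away in the other direction, and it was found in both windows. Alg12 had 161.3, 180.9 and 177.6 normalized reads in wild type and 260.0, 245.2 and 209.1 in knockout libraries. The groups did not overlap, and Alg12 rose by a log2 change of 0.45 ± 0.14 (SE; limma adjusted p = 0.0437; 0.0829 without wild type replicate 3). It was named after its values were seen. Among genes that overlap one of the 10, where reads of non-stranded libraries cannot be told apart, Rabepk shares 1921 bases with Hspa5 and had 137.9 to 181.1 normalized reads in all libraries, against at least 17237.2 for Hspa5. Atp6v1c2 shares 65 bases with Pdia6 and had at most 4.19. Plk1 does not overlap Ern2 but lies 8 bases from it. It had 482.9, 449.8 and 524.6 normalized reads in wild type and 680.3, 508.0 and 503.1 in knockout libraries (log2 change 0.20, limma adjusted p = 0.315). Whether reads of Plk1 and Ern2 were mixed was not tested.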

How the data were processed

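The deposited table gives, per gene and library, a normalized signal, that is, read counts divided by a library's size factor. The submitters' processing notes name FastQC, TopHat, DESeq2 and mm10 as what the authors used; no source used here names the read counter or annotation. In each column 100% of values came out as whole reads within 0.001 (size factors 0.9422 to 1.098), and the labels' protocols describe non-stranded mRNA libraries.

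Differences were tested with limma 3.58.1 (R 4.3.3) on log2(value + 1), with a prior that depends on intensity, for genes that reach 10 in 3 or more of 6 libraries, two-sided, with Benjamini-Hochberg adjustment over all 12837 genes and a threshold of 0.05. A log2 change is on this scale, knockout minus wild type, and understates the change of low genes. The 95% intervals are from the same fit. Alternatives were DESeq2 1.42.0 and edgeR 4.0.16 on the recovered counts, other scalings, filters and pseudocounts, library weights, a marker covariate and each library left out.

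The 10 genes and all lists were chosen with earlier results of these data known. The text names the 10 genes, Nr3c1, Ern1, up to 4 genes per list with the smallest adjusted p, the 5 genes most like Hspa5 and Ern2 and the 3 highest markers per list; other names were chosen after their values were seen. Entrez gene numbers were matched to symbols for 23666 of 23725 rows. Promoter sequences and coordinates are from RefSeq on GRCm38.p6, and exon lengths are the union of exons in GENCODE M21. Reads of overlapping genes or near-identical copies could be split or lost in counting.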

Additional observations from a re-analysis of the deposited data

How the results depend on the processing

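Of the 10 genes, 3 rose in the main limma fit, 0 with immune and stromal marker level as covariate, 5 with DESeq2, and 0 to 5 with 1 library left out. The number lowered was 1, and 2 with TMM scaling, upper-quartile scaling, quantile normalization, library weights and DESeq2, 0 with the covariate and 1 to 2 with 1 library left out. Of the other secretory genes, 42 rose and 2 fell, 0 and 0 with the covariate, and 13 to 41 and 0 to 2 with 1 library left out. Over all genes 1931 rose and 1979 fell, 17 and 28 with the covariate, and 970 to 1782 and 953 to 1825 with 1 library left out. The covariate does not overlap between the groups and takes 1 degree of freedom, and leaving out a library leaves fewer samples. Otherwise the cause of these moves was not tested.

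The log2 change of Hspa5, 0.01 in the main fit, was -0.001 with TMM scaling, -0.021 with upper-quartile scaling, -0.190 with quantile normalization, -0.157 with library weights and -0.723 with the covariate. With 1 library left out it ran from -0.285 to 0.194, and it was -0.027 without wild type replicate 2. With the covariate Hsp90b1 was at -0.039 and Xbp1 at -0.151. The cause was not tested. For the 10 genes, Nr3c1 and Ern1, 181 of the values under other settings kept direction and side of the threshold, 16 lost the call, 10 gained it and 9 reversed. The median change of all genes lay between -0.021 and 0.017 under every scaling and tool. No paired analysis was possible because the labels carry no replicate numbers shared between the groups. Each of the 10 genes had at least 279.7 normalized reads in every library, and 3 libraries per group limit the precision.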

Other observations

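The gene 1810014B01Rik lies 886 bases past the end of Hsp90b1 on chromosome 10 and was chosen after its values were seen. It had 1446.7, 1144.1 and 1514.5 normalized reads in wild type and 2597.7, 1593.4 and 2023.0 in knockout libraries, and its libraries rank in the same order as those of Hsp90b1. Its log2 change of 0.58 ± 0.19 (SE, n = 3 per group; limma adjusted p = 0.0556; 0.0725 without wild type replicate 3) did not pass the test. Whether reads of the 2 genes are separate transcripts was not tested.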
